A study of Mus musculus with 5 samples.

Results

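The 10 genes described here encode the Notch receptors Notch1, Notch2, Notch3 and Notch4, the ligands Jag1, Jag2, Dll1 and Dll4, and the target genes Hes1 and Hey1. They were taken by gene name from a table of 28666 genes, which held 1 row for each of them, and all 10 passed the filter on low counts that left 17013 genes for testing. None of the 10 was called different between uteri of the aged-SP group and uteri of the young-SP group. Hes1 came closest: its level was 1.93 times as high in the aged-SP group, and its adjusted p was 0.0867 in edgeR's quasi-likelihood test. Its 5 libraries did not overlap between the groups, as for 38.8% of all tested genes.

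RNA of whole uteri had been sequenced, and the 5 libraries described here came from female ICR mice aged 6 to 8 weeks. The study left out a further young-SP sample, which it identified as an outlier in hierarchical clustering. The young-SP spread below does not include that sample. Every female had been caged with a vasectomized C57BL/6 male, so that all of them received seminal plasma (SP) without sperm and no embryo was present. The males were 12 to 18 months old in the aged-SP group (2 libraries, replicates 1 and 4) and 12 to 14 weeks old in the young-SP group (3 libraries, replicates 1, 2 and 4). The labels place collection 3.5 days after caging, and the methods place it at 3.0 days post coitum. Nothing in the labels says whether 1 library holds 1 animal, so the p-values below measure the spread between these libraries. RNA of a whole organ mixes all its cells: fewer cells of a type and less RNA per cell cannot be told apart.

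Notch signaling passes between touching cells. A Jagged or Delta-like ligand on one cell binds a Notch receptor on its neighbour, ADAM proteases and then γ-secretase cut the receptor, and the freed intracellular domain enters the nucleus, where it joins the DNA-binding protein RBPJ and a Mastermind coactivator to switch on Hes and Hey genes. Those genes encode repressors of the basic helix-loop-helix family. In the uterus the pathway is known for its part in blood vessels, in the stroma that decidualizes and in the epithelium. Dll4 and Notch4 are best known from endothelial cells and Notch3 from the pericytes and smooth muscle around them.

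For 8 of the 10 genes, a promoter was present in the RefSeq table used (build GRCm38.p6); Hes1 and Hey1 had no entry. The 250 bases before the start are printed for Notch3 and Dll4, the receptor and the ligand with the widest ratio between libraries among the receptors and the ligands, whose windows also lay wholly outside the deposited gene. Capitals mark the letters CACNAG, the N box bound by Hes proteins, read on either strand.
Notch3, chr17:32166891-32167140, minus strand: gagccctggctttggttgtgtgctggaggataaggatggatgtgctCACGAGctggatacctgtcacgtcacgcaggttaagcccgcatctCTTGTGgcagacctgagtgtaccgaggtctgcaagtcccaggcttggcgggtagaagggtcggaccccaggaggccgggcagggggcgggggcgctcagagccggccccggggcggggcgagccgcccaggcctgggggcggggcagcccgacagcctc
Dll4, chr2:119325534-119325783, plus strand: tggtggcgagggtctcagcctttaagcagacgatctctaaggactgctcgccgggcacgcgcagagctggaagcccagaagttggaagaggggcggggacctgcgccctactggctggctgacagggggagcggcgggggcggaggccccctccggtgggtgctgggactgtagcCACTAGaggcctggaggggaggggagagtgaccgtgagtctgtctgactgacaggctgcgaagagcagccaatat
CACNAG occurred 2 times in the Notch3 window and 1 time in the Dll4 window, and 4 of the 8 matched genes held it (Notch1, Notch2, Notch3 and Dll4), beside 36.7% of all 32851 promoters. The letters TGGGAA, the core bound by RBPJ, occurred on neither strand in the windows of these 8 genes, beside 21.6% of all promoters. The motifs were searched separately, with any overlap allowed. These matches describe letters in these windows and are not binding sites.

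Levels between genes are given per length, as the deposited FPKM, in which a count is divided by the length of the gene and by the size of the library. Hes1 had the highest mean level, 12.2 ± 4.60 FPKM (SD, n = 5 libraries). It was followed by the receptor Notch2 at 10.1 ± 0.610 and the ligand Jag1 at 9.20 ± 1.78. Notch3 (6.26 ± 1.54), Notch1 (4.73 ± 0.462), Jag2 (3.91 ± 1.13) and Dll4 (3.29 ± 1.08) lay in the middle. Hey1 (2.47 ± 0.576), Notch4 (1.67 ± 0.375) and Dll1 (1.11 ± 0.269) were lowest. The ranges over the libraries overlapped between every pair of neighbours in this order. Within single libraries, Jag1 was above Notch3, Notch3 above Notch1 and Notch4 above Dll1 in 5 of 5, whereas Hes1 was above Notch2 in 2 of 5, the aged-SP libraries. The order of the means was the same with any 1 library left out. It rests on 1 fixed length per gene (14232 bases for Notch1, 8044 for Notch3), which leaving out a library cannot test. By counts, not divided by length, Notch1 (945 to 1306) was above Notch3 (632 to 1183) within each library.

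**Figure D1:**
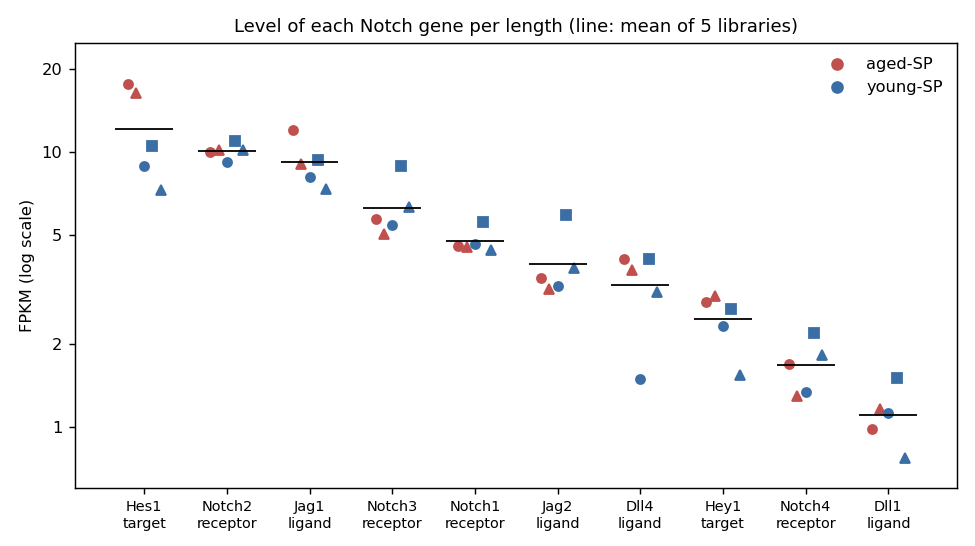
Level of each of the 10 genes in FPKM (vertical axis, log scale), ordered by the mean of the 5 libraries (line); red points are aged-SP and blue points young-SP libraries, with circles, squares and triangles for replicates 1, 2 and 4. Hes1 ranges from 7.30 to 17.7 FPKM and Dll1 from 0.771 to 1.503.

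Among the receptors, Notch2 carried 39.7% to 48.4% of the summed receptor FPKM in every library, Notch3 23.9% to 32.2%, Notch1 19.4% to 22.4% and Notch4 6.15% to 8.05%. Among the ligands, Jag1 carried 45.0% to 58.5%, Jag2 16.9% to 28.2%, Dll4 10.7% to 21.7% and Dll1 4.75% to 7.99%. Jag1 was thus the leading ligand and Notch2 the leading receptor by FPKM in all 5 libraries. These shares rest on the same fixed lengths.

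Within a gene, values below are CPM, the gene's counts relative to the library total after TMM scaling (edgeR's correction of library sizes), and fold changes are aged-SP over young-SP. The 10 genes had 49 to 1951 counts per library, in libraries of 15071914 to 16728601 counts. Calls needed both an adjusted p below 0.05 and a log2 fold change beyond 1 in either direction, which 25 of the 17013 tested genes passed (0.147%). Of the 10 Notch genes, 0 were called and 0 had an adjusted p under 0.05. In the Wald test of DESeq2, 1 (Hes1) had an adjusted p under 0.05, beside 7.58% of all genes with an adjusted p. That test called 0 of the 10, beside 3.60% of those genes. In edgeR 1 had an unadjusted p under 0.05 (Hes1), beside 19.0% of all tested genes. By sign 5 were higher and 5 lower, with a median log2 fold change of -0.02 (0.007 over all tested genes) and a median size of 0.35 (0.24 over all). The groups did not overlap for 2 of the 10 (Hes1 and Hey1), beside 38.8% of all tested genes.

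**Figure D2:**
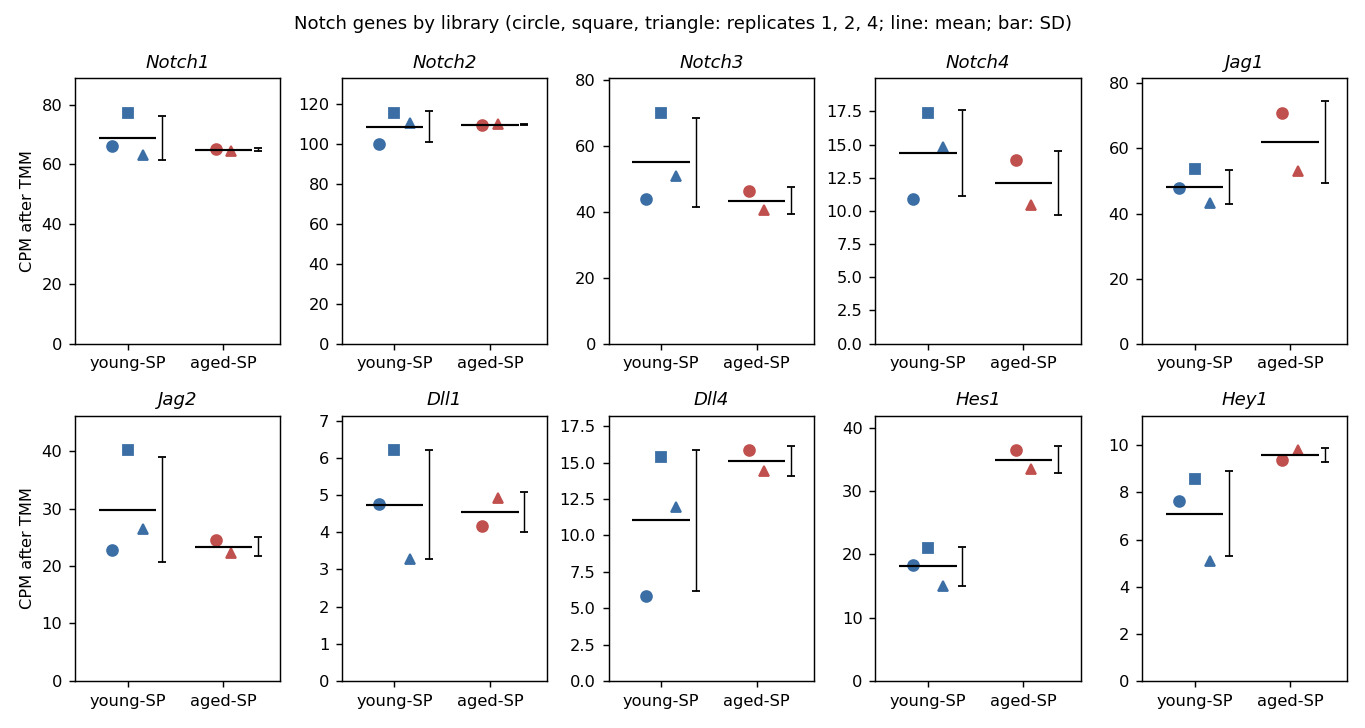
CPM after TMM (vertical axis, from 0) of each gene in the 3 young-SP (blue) and 2 aged-SP (red) libraries; circles, squares and triangles are replicates 1, 2 and 4, lines are group means and bars the SD. The points of the groups separate for Hes1 and Hey1 and overlap for the other 8 genes.

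Notch2, the most abundant receptor (ENSMUSG00000027878, chromosome 3, 98013527 to 98150361, plus strand), was also the steadiest of the 10. It measured 109.4 and 109.7 CPM in aged-SP replicates 1 and 4, and 100.02, 115.3 and 110.2 CPM in young-SP replicates 1, 2 and 4. The aged-SP values lay inside the young-SP range, with a log2 fold change of 0.01 (SE 0.10, adjusted p = 0.954) and a 95% interval of 0.855 to 1.19 in fold.

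Notch1, the receptor of many epithelial and vascular cells (ENSMUSG00000026923, chromosome 2, 26457903 to 26516663, minus strand), measured 65.3 and 64.5 CPM in the aged-SP and 66.3, 77.2 and 63.1 CPM in the young-SP libraries. Young-SP replicate 2 stood highest and the other 4 libraries lay close together. The log2 fold change was -0.09 (SE 0.11, adjusted p = 0.722).

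Notch3, the receptor of pericytes and vascular smooth muscle (ENSMUSG00000038146, chromosome 17, 32120820 to 32166880, minus strand), measured 46.3 and 40.4 CPM in the aged-SP and 44.0, 69.9 and 50.9 CPM in the young-SP libraries. Young-SP replicate 1 fell between the aged-SP values, so the groups overlapped. Its log2 fold change was -0.34 (SE 0.21, adjusted p = 0.436), and it was -0.13 without young-SP replicate 2. The summed pericyte markers were 889 and 920 CPM in the aged-SP libraries and 799 to 1045 CPM in the young-SP libraries, and young-SP replicate 2, the highest for Notch3, was at 920 CPM.

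Notch4, the receptor largely restricted to endothelial cells (ENSMUSG00000015468, chromosome 17, 34564268 to 34588503, plus strand), measured 13.8 and 10.4 CPM in the aged-SP and 10.9, 17.4 and 14.8 CPM in the young-SP libraries. The lowest value was in aged-SP replicate 4 and the next in young-SP replicate 1, and the groups overlapped. The difference, -0.24 on the log2 scale (SE 0.25, adjusted p = 0.641), was within the spread between libraries. It was -0.08 without young-SP replicate 2 and -0.05 without aged-SP replicate 4, against -0.46 without aged-SP replicate 1.

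Jag1, the leading ligand (ENSMUSG00000027276, chromosome 2, 137081456 to 137116644, minus strand), measured 70.9 and 53.0 CPM in the aged-SP and 47.7, 53.6 and 43.1 CPM in the young-SP libraries. Only aged-SP replicate 1 stood above the young-SP range. The log2 fold change was 0.36 (SE 0.16, adjusted p = 0.304), with a 95% interval of 0.973 to 1.70 in fold. Without aged-SP replicate 1 it was 0.14, and without aged-SP replicate 4 it was 0.56.

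Jag2, the second Jagged ligand (ENSMUSG00000002799, chromosome 12, 112907819 to 112929776, minus strand), went the other way by value, with 24.5 and 22.2 CPM in the aged-SP and 22.8, 40.1 and 26.4 CPM in the young-SP libraries. Young-SP replicate 2 was the high point and the rest lay within a narrow band. On the log2 scale the difference was -0.35 (SE 0.26, adjusted p = 0.507), and it was -0.08 without young-SP replicate 2.

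The ratio of Jag1 to Jag2 in FPKM was 3.45 and 2.86 in the aged-SP libraries and 2.50, 1.59 and 1.95 in the young-SP libraries. The ratio did not overlap between the groups. It was singled out after its values were seen and was not tested.

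Dll4, the ligand of arterial and sprouting endothelium (ENSMUSG00000027314, chromosome 2, 119325784 to 119335962, plus strand), varied most of all 10 genes over the 5 libraries, with a ratio of 2.72 between the highest and the lowest. It measured 15.8 and 14.4 CPM in the aged-SP libraries. It measured 5.82, 15.4 and 11.9 CPM in the young-SP libraries. Young-SP replicate 1 stood far below the other 4 libraries, and young-SP replicate 2 lay between the aged-SP values. The log2 fold change was 0.45 (SE 0.40, adjusted p = 0.576) and fell to 0.13 (SE 0.19, adjusted p = 0.724) without young-SP replicate 1, while it was 0.77 (adjusted p = 0.486) without young-SP replicate 2.

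The 10 endothelial markers (Pecam1, Cdh5, Kdr, Tek, Tie1, Emcn, Cldn5, Egfl7, Erg and Esam), all 10 of them tested, summed to 771 and 779 CPM in the aged-SP libraries. In the young-SP libraries they summed to 561, 990 and 707 CPM in replicates 1, 2 and 4. The lowest sum was thus in the library with the lowest Dll4. The order of the 3 young-SP libraries was the same for Dll4, Notch4 and this sum, and also for Notch2, Notch3 and Jag2. In the aged-SP libraries the sum was higher in replicate 4. Dll4 (14.4 against 15.8 CPM) and Notch4 (10.4 against 13.8 CPM) were lower in aged-SP replicate 4 than in replicate 1. Of the 10 endothelial markers, 5 had log2 fold changes above 0 and 5 below, and 0 passed the call. The part of the endothelial RNA in the Dll4 and Notch4 values was not tested.

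Dll1, the least abundant of the 10 (ENSMUSG00000014773, chromosome 17, 15367354 to 15376872, minus strand), is a ligand used in many developing tissues. It measured 4.17 and 4.92 CPM in the aged-SP and 4.75, 6.21 and 3.27 CPM in the young-SP libraries, from 49 to 105 counts. The aged-SP values lay inside the young-SP range. The log2 fold change was -0.06 (SE 0.32, adjusted p = 0.934), with a 95% interval of 0.550 to 1.67 in fold.

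Hes1, the repressor that is the most widely used Notch target and also answers to other signals (ENSMUSG00000022528, chromosome 16, 30064384 to 30067796, plus strand), measured 36.4 and 33.4 CPM in the aged-SP libraries. It measured 18.3, 21.04 and 14.95 CPM in the young-SP libraries. Both aged-SP libraries stood well above all 3 young-SP libraries, the lower of them at 33.4 CPM against the highest young-SP value of 21.04 CPM. The means were 34.9 ± 2.13 CPM (SD, n = 2) and 18.1 ± 3.05 CPM (SD, n = 3). The log2 fold change was 0.95 (SE 0.17), with a 95% interval of 1.44 to 2.59 in fold. The adjusted p over all tested genes was 0.0867 in edgeR's quasi-likelihood test and 0.000449 in the Wald test of DESeq2, in which 7.58% of genes with an adjusted p were under 0.05. Neither tool called it: its log2 fold change was under 1 in both, and in edgeR its adjusted p was also above 0.05.

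Hey1, a target best known from arterial endothelium (ENSMUSG00000040289, chromosome 3, 8663359 to 8667256, minus strand), measured 9.37 and 9.79 CPM in the aged-SP and 7.63, 8.57 and 5.07 CPM in the young-SP libraries. The groups did not overlap, but young-SP replicate 2 lay close to the aged-SP values. Its log2 fold change was 0.43 (SE 0.26, adjusted p = 0.423), and it was 0.23 without young-SP replicate 4. Hes1 made up 86.2% and 84.5% of the summed FPKM of both targets in the aged-SP libraries and 79.3%, 79.7% and 82.5% in the young-SP libraries.

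**Figure D3:**
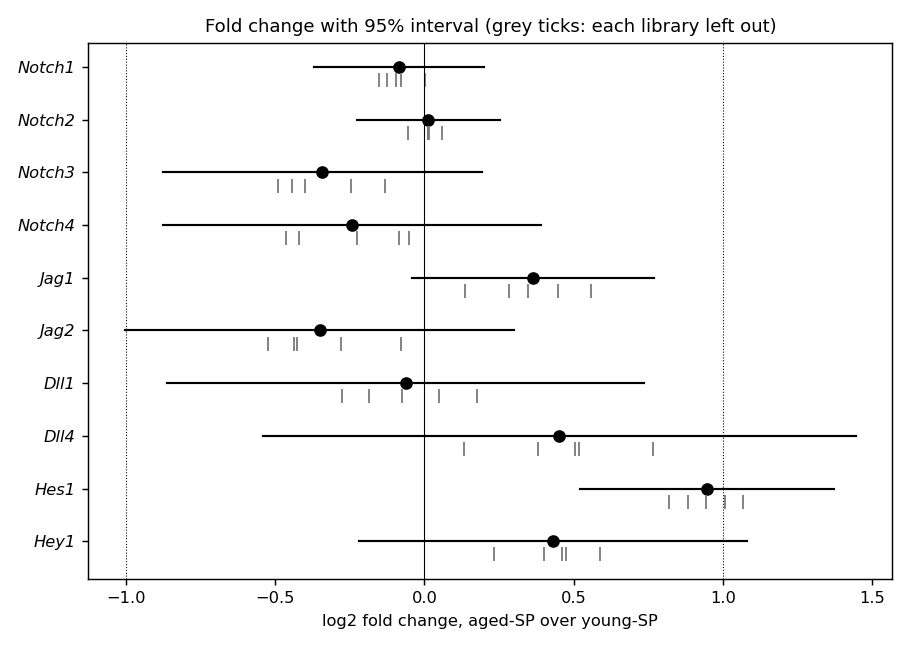
Log2 fold change of each gene, aged-SP over young-SP (horizontal axis), with its 95% interval from edgeR's quasi-likelihood fit; grey ticks are the values with each library left out in turn and dotted lines mark -1 and 1. The interval lies wholly above 0 for Hes1 (0.52 to 1.37) and spans 0 for the other 9 genes.

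Across the libraries, young-SP replicate 2 held the highest value of 6 of the 10 genes (Notch1, Notch2, Notch3, Notch4, Jag2 and Dll1), where 18.5% of all tested genes had their highest value. Young-SP replicate 4 held the lowest value of 5 (Notch1, Jag1, Dll1, Hes1 and Hey1), where 17.5% of all tested genes had their lowest. All 4 receptors were thus highest in the same young-SP library, and neither aged-SP library was the highest for any receptor.

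Young-SP replicate 1 weighed most on the number of calls: without it, 578 of 16745 genes were called (3.45%) in place of 25, and still 0 of the 10 Notch genes. Without it, the log2 fold changes were -0.49 for Notch3 (adjusted p = 0.197), -0.42 for Notch4 (adjusted p = 0.315), -0.52 for Jag2 (adjusted p = 0.254) and 0.94 for Hes1 (adjusted p = 0.0676). The remaining 4 libraries then did not overlap between groups for 6 of the 10 genes (Notch2, Notch3, Notch4 and Jag2 lower in aged-SP, Hes1 and Hey1 higher), beside 55.4% of all tested genes.

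Other cell types also differed between the libraries. The dividing-cell markers summed to 214 and 231 CPM in the aged-SP libraries and to 647, 361 and 251 CPM in the young-SP libraries. These sums were highest in young-SP replicate 1 and did not overlap between the groups, lower in aged-SP. The uterine gland markers summed to 4078 and 2930 CPM in the aged-SP libraries and to 508, 50.7 and 41.7 CPM in the young-SP libraries, without overlap, as for Hes1. That sum was mostly the serine proteases Prss28 and Prss29, while the gland transcription factor Foxa2 had a log2 fold change of -0.02 (adjusted p = 0.976). Cxcl15, a chemokine of gland epithelium in the same list, went the other way by value, with 2.90 and 1.92 CPM against 8.69, 20.2 and 8.14 CPM and a difference of -2.35 on the log2 scale (edgeR adjusted p = 0.116, DESeq2 adjusted p = 0.000254). The lymphatic markers Lyve1, Prox1 and Flt4, with Ccl21a at 3 counts or fewer, summed to 188 and 197 CPM against 84.9 to 129 CPM, also without overlap. Epithelial markers (1301 and 1376 against 777 to 1656 CPM) and leukocyte markers (299 and 347 against 237 to 426 CPM) overlapped. So did the sums for smooth muscle (9253 and 11736 against 9572 to 14504 CPM), stroma (3892 and 4906 against 4022 to 5879 CPM), oviduct and ciliated cells (53.1 and 122 against 36.9 to 236 CPM), ovary (35.8 and 70.9 against 21.5 to 42.5 CPM) and adipose tissue (14.99 and 17.97 against 13.7 to 18.8 CPM). The adipose sum was mostly Lipe, at 13.6 to 17.97 CPM. In young-SP replicate 4, Cfd was at 3.87 CPM (58 counts) and Adipoq at 0.80 CPM (12 counts). In the other libraries Cfd was at most 0.059 CPM and Adipoq at 0. The part of all these cell types in the Hes1 values was not tested. The uterine markers Hoxa10 and Hoxa11 were present in every library, at 437 to 519 and 132 to 168 CPM, and the markers of vagina and cervix summed to 1.98 to 5.08 CPM.

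**Figure D4:**
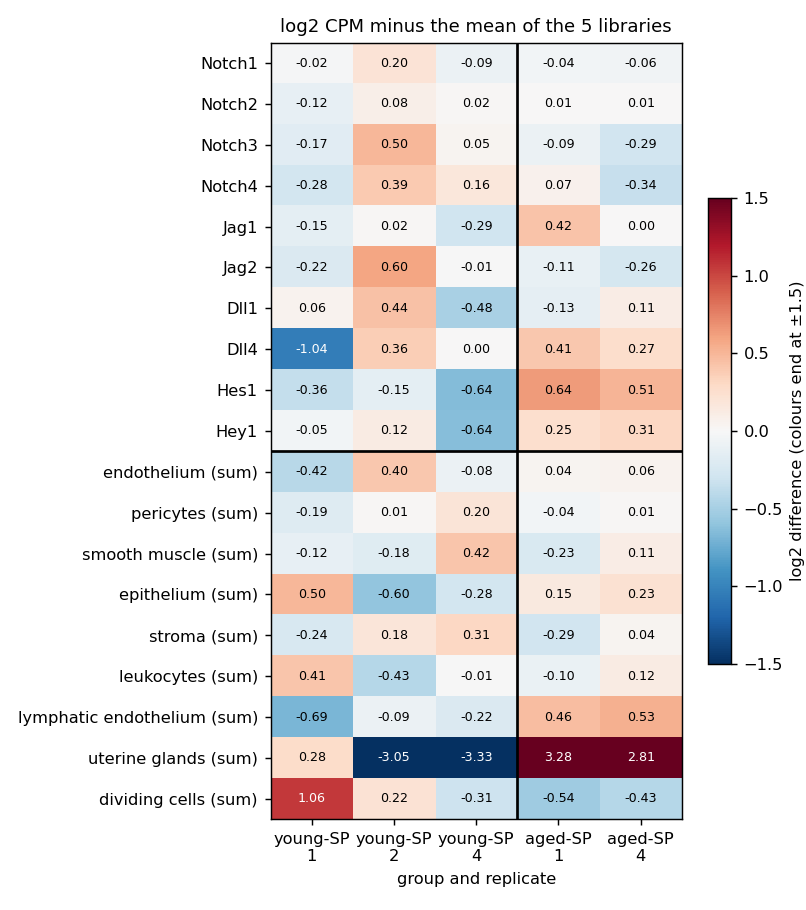
Log2 CPM of each of the 10 genes and of the summed markers of 9 cell types, minus the mean of the 5 libraries (colour and number in each cell; colours end at ±1.5), by group and replicate (columns). Dll4 is 1.04 below its mean in young-SP replicate 1, where the endothelial sum is 0.42 below its own, and Hes1 is above its mean in both aged-SP libraries.

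The other components of the pathway were read from a list of 50 genes in 8 roles, of which 48 were in the table and 43 were tested. None of the 43 was called by edgeR or reached an adjusted p under 0.05; 9 had an unadjusted p under 0.05 (5 higher and 4 lower), beside 9.62% of all tested genes higher and 9.36% lower. In total 23 were higher and 20 lower, with a median log2 fold change of 0.07 (0.007 over all tested genes), and the groups did not overlap for 24 (55.8%), beside 38.8% of all tested genes. The DESeq2 Wald test gave 3 of them an adjusted p under 0.05 (Hdac1, Maml3 and Aph1c), beside 7.58% of all genes with an adjusted p. It called 1, Aph1c, where it called 3.60% of all genes.

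Hdac1, a histone deacetylase found in the repressor complexes of RBPJ and of Hes proteins, measured 42.7 and 45.9 CPM in the aged-SP and 66.0, 63.5 and 63.0 CPM in the young-SP libraries. Both aged-SP values lay below all 3 young-SP values, with a log2 fold change of -0.53 (SE 0.09, adjusted p = 0.0760 in edgeR and 0.000655 in DESeq2). Maml3, a Mastermind coactivator, measured 26.6 and 23.2 CPM against 11.6, 14.8 and 13.6 CPM. Its log2 fold change was 0.90 (SE 0.16, adjusted p = 0.0848 in edgeR and 0.000765 in DESeq2). Aph1c, a γ-secretase subunit, measured 10.1 and 16.7 CPM against 5.44, 6.74 and 7.21 CPM, and its log2 fold change was 1.05 (SE 0.27, adjusted p = 0.143 in edgeR and 0.0249 in DESeq2). In edgeR the value was 0.64 without aged-SP replicate 4 and 1.37 without aged-SP replicate 1. The groups did not overlap for any of these 3 genes. The 3 were named for their p-values in these same libraries, so this is no separate support.

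The others with an unadjusted p under 0.05 had smaller differences. The coactivator Maml2 had a log2 fold change of 0.43 (adjusted p = 0.249) and the ligand ubiquitin ligase Mib2 0.31 (adjusted p = 0.184). The ligase Neurl1b had -0.31 (adjusted p = 0.251). The fucosyltransferase Pofut1, which adds the first sugar on Notch repeats, had -0.29 (adjusted p = 0.169), and Rfng, a Fringe that extends that sugar, had -0.52 (adjusted p = 0.254), or -0.32 without young-SP replicate 2.

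By role, all 5 genes of sugar transfer to the receptor had log2 fold changes below 0 (-0.52 to -0.11), of which 0 passed an adjusted p under 0.05. Of the 10 receptor proteases, 7 were above 0 and 3 below. Of the 6 nuclear activators 4 were above 0, of the 5 repressors 3, of the 9 inhibitors and turnover genes 6, and of the 4 ligand ubiquitin ligases 2. Of the 4 tested genes among the other Hes and Hey family and Nrarp, 1 was above 0 (Hes6), and Hey2 had the lowest log2 fold change, -0.86 (adjusted p = 0.266). Hes1 and Hey1 thus had values above 0 while Hey2, Heyl (-0.65, adjusted p = 0.466) and Nrarp (-0.40, adjusted p = 0.770) had values below 0; none of the 5 reached an adjusted p under 0.05 in edgeR. Hey2, Heyl and Nrarp were named after their values were seen.

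The most abundant gene of each role, by mean FPKM, was Mib1 among the ligand ubiquitin ligases (13.7), Poglut1 in sugar transfer (16.7), the protease Adam10 (37.6), the coactivator Snw1 (10.7), the corepressor Ctbp1 (36.7), Dtx3 among inhibitors and turnover genes (41.1) and Hes6 among the other Hes and Hey genes (14.8). All 7 had log2 fold changes between -0.13 and 0.20. The other ligands Dll3, Dlk1 and Dlk2 were too low to be tested, with Dlk1 highest at 0.052 FPKM; Hes2 and Hes7 were likewise not tested, and Hes3 and Hes5 had no row in the table.

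**Figure D5:**
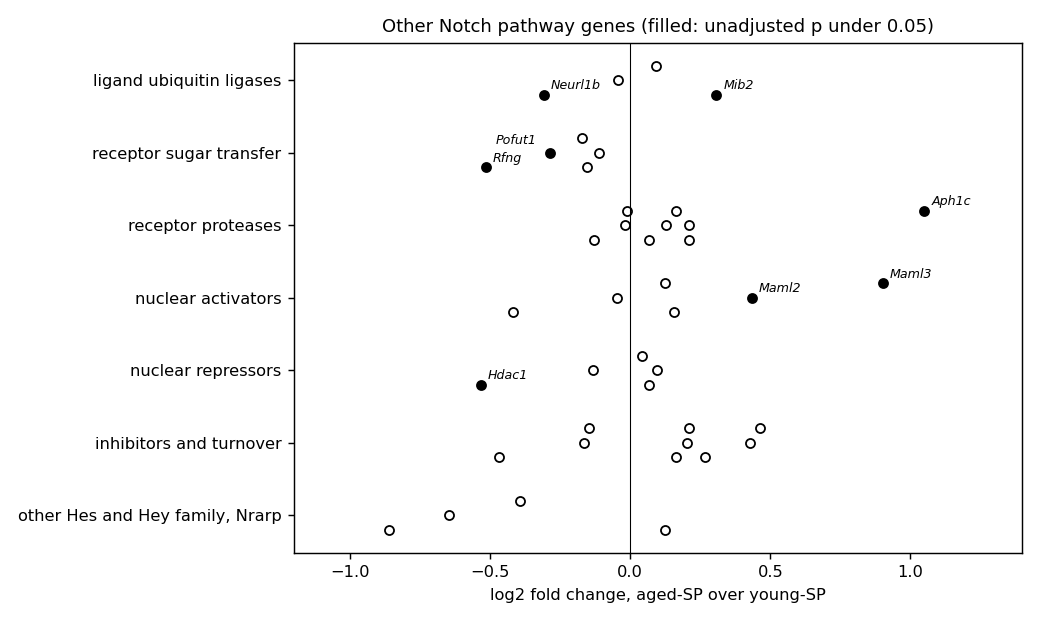
Log2 fold change, aged-SP over young-SP (horizontal axis), of the tested pathway genes outside the 10, with 1 gene not shown, by role (vertical axis, offset in height); filled points, with names, have an unadjusted p under 0.05. The filled points range from -0.53 (Hdac1) to 1.05 (Aph1c).

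For the receptor, the ligand and the target with the largest SD of log2 CPM over the 5 libraries (Notch4 at 0.307, just above Notch3 at 0.305, then Dll4 and Hes1), the 4 genes nearest in pattern were found among 11617 genes with a mean count of at least 100, by the root mean square difference of log2 CPM, each gene centred on its own mean over the 5 libraries. Among the genes nearest to Notch4 were Ppp2r3d (0.033), Camk1d (0.058) and Ednra (0.069), where the median over all those genes was 0.323. Ednra, the endothelin A receptor, measured 76.2 and 62.8 CPM in the aged-SP and 62.2, 90.0 and 83.7 CPM in the young-SP libraries. Nearest to Dll4 were Limch1 (0.113), Adra2a (0.146), Ablim1 (0.172) and Apold1 (0.177), with a median of 0.561, and all 4 had their lowest value in young-SP replicate 1. Nearest to Hes1 were Scarb1 (0.074), Slc45a3 (0.077), Miip (0.118) and Sec11c (0.119), with a median of 0.519. Scarb1, the receptor for high-density lipoprotein, measured 118 and 103 CPM in the aged-SP and 64.1, 65.6 and 51.8 CPM in the young-SP libraries, with a log2 fold change of 0.87 (adjusted p = 0.0760). These genes were picked for their likeness over 5 libraries only, and no test was made.

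The library kit does not mark strand, so counts cannot separate a gene from an antisense neighbour. In the GENCODE M21 annotation, exons of Notch1 (0610009E02Rik and Gm13568), Notch3 (Gm17276), Dll1 (A930024N18Rik) and Dll4 (Gm14207) overlap antisense genes, and exons of Notch2 overlap Gm42820 on its own strand. The share of each gene's stretches of 50 bases that also occur in another gene's transcripts was 15.01% for Dll1, 13.7% for Notch1, 5.01% for Notch3, 4.46% for Dll4 and 3.86% for Notch2. It was 0 for Notch4, Jag1, Jag2, Hes1 and Hey1, and exons of these 5 overlap no other gene.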

How the data were processed

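The 5 libraries were made from total RNA of uteri with the NEBNext Ultra RNA kit and sequenced on an Illumina HiSeq. The authors deposited 1 table of raw counts per gene and, per library, FPKM values, which equal the deposited counts divided by gene length and library total (largest relative difference 2.33e-07). The submitters' processing notes name HISAT2 2.1.0, Bowtie2 2.2.3 and HTSeq 0.6.0. The genome build was not given in the sources used here; 9 of the 10 positions equal those of GENCODE M21 (GRCm38), and Notch3 ends elsewhere there (32166852). The table also holds the authors' mean counts, fold changes and p-values, which were not used. The young-SP library that the study left out as an outlier was not analysed here.

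Genes were kept by edgeR's filterByExpr (17013 of 28666), scaled by TMM (factors 0.990 to 1.02) and tested with the two-sided quasi-likelihood test of edgeR 4.0.16, with Benjamini-Hochberg adjustment over all tested genes. Standard errors and 95% intervals came from that fit, whose biological coefficient of variation was 25.1%. The chi-square statistic per degree of freedom between any 2 libraries was 17.0 to 82.3, so all 5 were counted as separate samples. The scripts were tested on simulated data with 200 changed genes, taken from those with a mean count of at least 100. Each changed by 2 on the log2 scale, up or down. Smaller changes, such as those of the 10 Notch genes, were not simulated. False calls in the simulated data were 10.3% of the calls in edgeR, 19.7% in DESeq2 and 7.65% in limma-voom. Alternatives were DESeq2 1.42.0, limma-voom (limma 3.58.1), other scalings and filters, a replicate block and leaving out each library. The 10 genes, the pathway list and the marker lists were chosen with earlier results of these data known. Named genes were all 10, the pathway genes with an unadjusted p under 0.05 and the most abundant of each role, and the 4 genes nearest in pattern to the receptor, ligand and target with the largest SD of log2 CPM, leaving out predicted (Gm) and Rik genes. Results for 2 of the genes that this rule names are not reported here.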

Additional observations from a re-analysis of the deposited data

How the results depend on the processing

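Of the 10 Notch genes, 0 were called in edgeR and in every alternative, while the number of calls over all genes moved from 25 to 632 with the DESeq2 Wald test, to 203 with no filter on low counts, to 2 with a replicate block and to between 1 and 578 with each library left out (578 without young-SP replicate 1). Leaving out an aged-SP library assumes that the lone one left varies like the young-SP group. Of the other pathway genes, the DESeq2 Wald test called 1 (Aph1c). Hes1 kept its direction in 14 of 14 alternatives, with a log2 fold change of 0.82 to 1.08 and an adjusted p of 0.000449 to 0.299, under 0.05 with DESeq2 only; with each library left out the adjusted p was 0.0676 to 0.299. Signs turned for Notch1 (0.0052 with the replicate block; -0.15 to 0.0027 with each library left out), Notch2 (-0.00066 with library size alone; -0.054 to 0.058 with each left out) and Dll1 (0.20 with the replicate block; -0.28 to 0.18 with each left out). In the replicate block, young-SP replicate 2 has no partner of its number and adds nothing to the fitted group difference. With that library left out, Notch1 was at 0.0027 and Dll1 at 0.18. Other reasons for the turned signs were not tested. The other 6 kept their sign in all 14. The number of the 10 whose groups did not overlap was 3 to 6 with each library left out, against 2 with all 5 libraries. Over all tested genes the share was 38.8% with all 5 libraries. It was 55.4% without young-SP replicate 1, the case with 6 of the 10, and is not given here for the other cases. Scalings put the median log2 fold change of all tested genes between -0.006 and 0.007. Replicate numbers 1 and 4 occur in both groups. Deviations from the group means correlated at 0.152 and 0.136 for the same-numbered pairs and at -0.152 to 0.0757 for the other pairs. With 2 aged-SP libraries, the deviations of one mirror those of the other, so these values cannot decide whether the numbers mark pairs. The replicate block put Hes1 at 1.08 on the log2 scale (adjusted p = 0.169). Dll1 and Hey1, with 49 to 155 counts per library, have the counts that limit precision most.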
